A study of Mus musculus with 10 samples.

Results

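The genes through which cells sense IL-23, IL-12, IL-27, IL-17 and interferon gamma were followed in the spleens of BXD2 mice, an autoimmune strain that forms germinal centers (GCs) spontaneously. The set was chosen by name and holds 10 of the 31053 genes in each expression matrix. It comprises 8 receptor subunits (Il23r, Il12rb1, Il12rb2, Il27ra, Il6st, Il17ra, Ifngr1 and Ifngr2), the cytokine subunit Ebi3 and the feedback inhibitor Socs3. All 10 were found in the matrices of all 5 mice.

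The mice were 3 BXD2-p19-/- animals, which lack the p19 subunit of IL-23, and 2 BXD2-WT animals, and every mouse gave 1 droplet single-cell RNA library and 1 B cell receptor (BCR) library from spleen. Mice p19-/- 1 and 2 and both WT mice are labelled female, and p19-/- 3 is labelled male, so no WT male exists for comparison. The sample labels call the cells B and T cells while the series' design speaks of GC B cells, and no sort, age or day of capture is named. The labels also say nothing of how the p19 allele was made. Each library came from a different mouse, so p-values measure the spread between mice.

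IL-23 binds a receptor made of Il23r and Il12rb1, and IL-12 binds Il12rb1 paired with Il12rb2. IL-27, a dimer that contains Ebi3, signals through Il27ra and Il6st, the gp130 chain that also serves IL-6. IL-17 acts through Il17ra, and interferon gamma through Ifngr1, which binds the ligand, and Ifngr2, which is needed for signalling. Receptors of the IL-12 and gp130 families activate JAK kinases and STAT factors, and Socs3, itself a STAT3 target, binds gp130 and its kinases and dampens the signal. IL-17 has been linked to GC formation in BXD2 mice, and IL-23 is best known for sustaining T cells that make IL-17.

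The 5 libraries held 1104 to 3226 barcodes and 7712457 to 18093053 UMIs (unique molecular identifiers, 1 per captured transcript). After filtering, 944 to 2729 cells per mouse remained, 9200 in all, with medians of 3883 to 5224 UMIs per cell. Library p19-/- 1 lost 891 barcodes to the limit on mitochondrial UMIs, and it supplied 300 of the 398 cells of an unnamed B cell cluster. Unnamed B cells enter no comparison between named classes, but they count in the values over all cells. Across libraries, 68 barcode sequences occurred in 2 or more of them. Cells were clustered without the 10 genes and named from marker lists as GC B-like (2931 cells), mature non-GC B-like (597), plasma cell-like (279), T follicular helper (Tfh)-like (1993), regulatory T (Treg)-like (894), other CD4 T-like (727), CD8 T-like (218), macrophage or monocyte-like (571), dendritic cell-like (106), neutrophil-like (62) and erythroid-like (48), while 774 B cells stayed unnamed. The CD8 T-like cluster also carried the natural killer gene Ncr1 among its leading genes. Levels below are CPM, the UMIs of a gene per 1000000 UMIs of that class in that mouse, given as mean ± SD over mice. They compare classes or mice for 1 gene at a time.

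Il23a, the gene of p19, had 0 UMIs in all 5 libraries, so RNA could not check the deletion. Several other ligands of the axis were sparse. For Il12b, the partner of p19 in IL-23 and of p35 in IL-12, there were 0, 0 and 2 UMIs in p19-/- 1 to 3 against 0 and 1 in WT. Il17a gave 0, 0 and 1 against 2 and 0, and Il17f and Il22 gave none. Il27, the partner of Ebi3 in IL-27, gave 5, 3 and 3 against 4 and 5. Il12a, the gene of p35, gave 19, 10 and 32 against 17 and 16. Ifng gave 168, 76 and 121 against 77 and 98. These are raw UMIs, and the libraries held 11433829, 7712457 and 18093053 UMIs in p19-/- and 17331992 and 15387162 in WT. In CPM, Ifng in other CD4 T-like cells was at 102, 54.6 and 86.9 against 35.2 and 47.0, without overlap. It overlapped in Tfh-like cells (40.9, 21.1 and 24.7 against 21.2 and 18.1), and also in Treg-like and CD8 T-like cells.

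**Figure D1:**
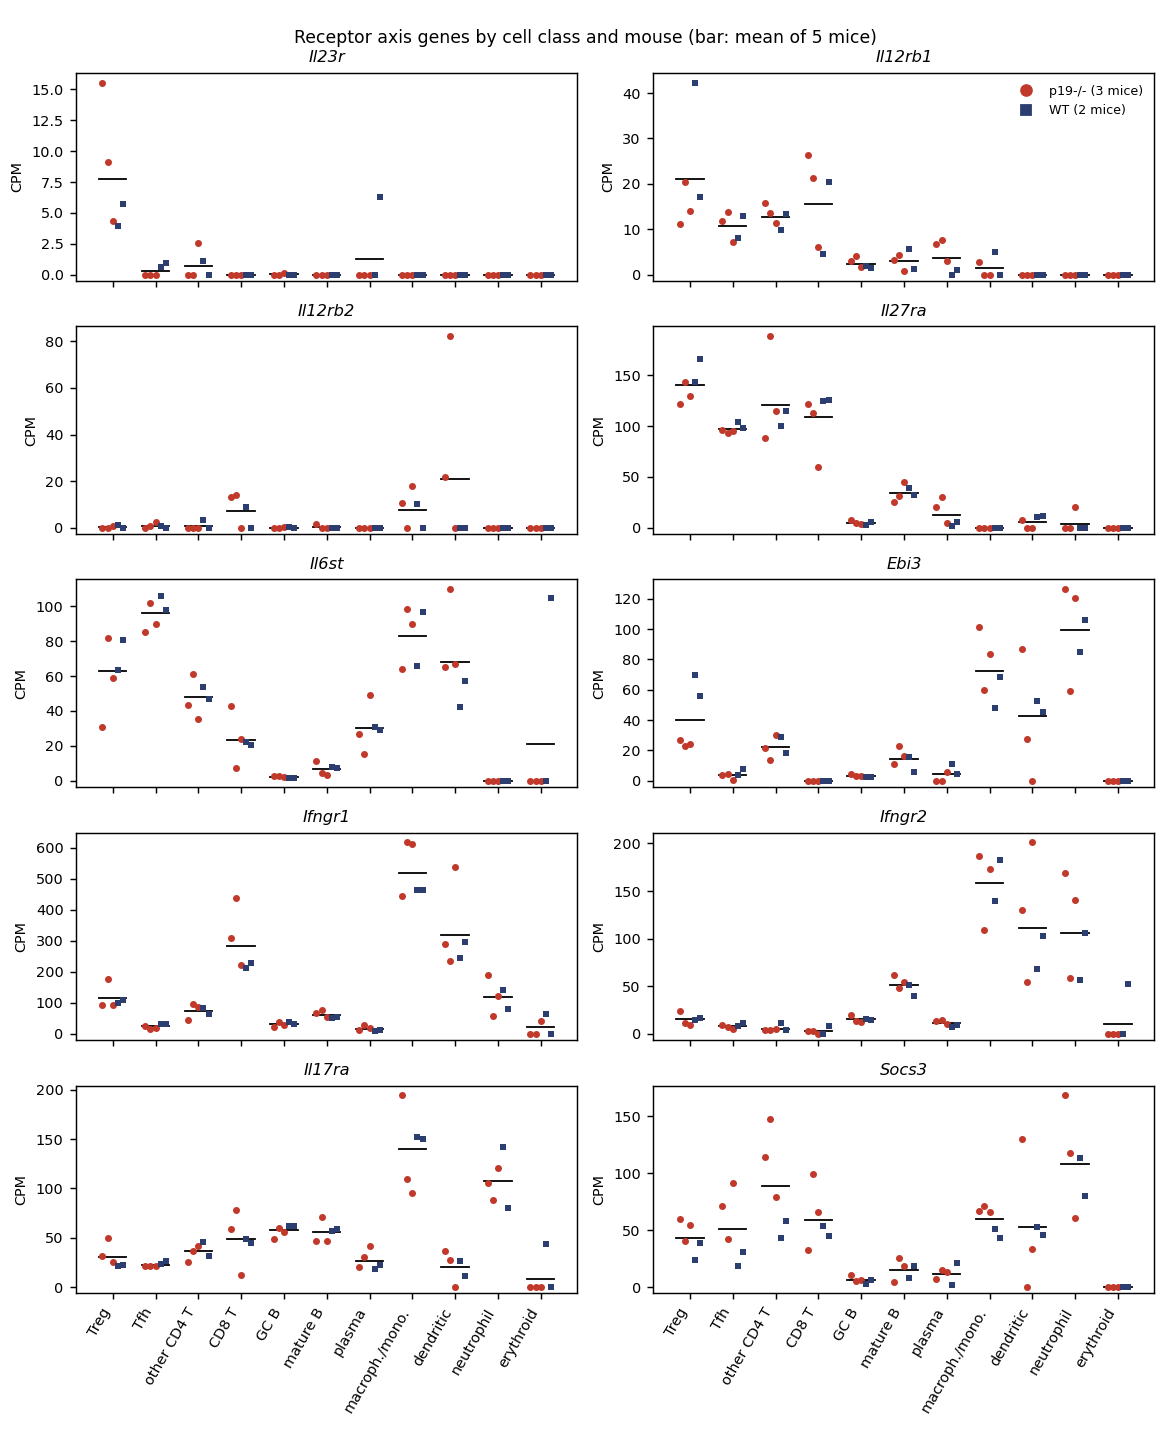
Level of each of the 10 genes (y axis, CPM, linear and scaled separately for each gene) in 11 cell classes (x axis), with 1 point per mouse (red circles p19-/-, blue squares WT) and a black bar for the mean of 5 mice. Il23r points above 0 lie mainly in Treg-like cells, Il27ra and Il6st points are high in the CD4 T classes, and the means of Ifngr1, Ifngr2 and Il17ra are highest in the pooled macrophage or monocyte-like cells, whose 3 clusters differ (Il17ra 2.66, 38.6 and 242 CPM).

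Il23r, the subunit specific to IL-23, was detected mostly in Treg-like cells, and there in few of them. The gene lies on chromosome 6 from 67422932 to 67491855 (mm10), 46.6 kb from its neighbour Il12rb2 (67285986 to 67376293). In the 9200 cells kept it gave 38 UMIs in 26 cells, of which 19 were Treg-like and held 24 UMIs. Other CD4 T-like cells held 3 UMIs in 2 cells, Tfh-like cells 3 UMIs in 3 cells, all of them WT, and GC B-like cells 1 UMI in 1 cell. The last 7 UMIs came from a single plasma cell-like cell of WT 2 with 33652 UMIs in all.

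Among Treg-like cells, Il23r stood at 15.5, 9.09 and 4.38 CPM in p19-/- 1 to 3 and at 3.96 and 5.69 CPM in WT 1 and 2. These values rest on 7, 4, 5, 3 and 5 UMIs, and the ranges of the genotypes overlap. A UMI was seen in 4.90%, 5.13% and 1.44% of p19-/- Treg-like cells and in 0.840% and 2.01% of WT ones. The exact Clopper-Pearson 95% intervals, which cover counting error only, ran from 1.61% to 11.1% in p19-/- 1 and from 0.102% to 3.00% in WT 1. Most of these cells therefore gave no Il23r UMI at this depth, which is not evidence that they lack the transcript.

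GC B-like cells gave a tighter limit. With 1 UMI among 2931 GC B-like cells (0.0341%), Il23r was at 0 in p19-/- 1, p19-/- 2, WT 1 and WT 2, where 3 UMIs would have corresponded to 0.892, 0.778, 0.289 and 0.379 CPM. No UMI came from the 597 mature non-GC B-like cells, with limits of 2.58 to 6.31 CPM per mouse. These are near the limits of Treg-like cells (2.63 to 6.82 CPM). No UMI was seen in 571 macrophage or monocyte-like cells either, a class with a median of only 1607 UMIs per cell. GC B-like cells were sampled more deeply, with a median of 10029 UMIs per cell against 3427 in Treg-like cells. After each cell was thinned to 2000 UMIs, 0.906% of 773 Treg-like and 0 of 2813 GC B-like cells kept an Il23r UMI.

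Il23r was too sparse for the count model in any class, so it was compared between genotypes as 1 value per mouse. Over all cells it was 0.591 ± 0.152 CPM in p19-/- (n = 3) and 0.629 ± 0.453 CPM in WT (n = 2; two-sided exact permutation p = 1). The WT 2 value rests in part on the plasma cell-like cell above: without it, p19-/- exceeded WT by 0.199 CPM, an alternative chosen after seeing the data. Over all CD4 T cells (the pool of the Treg-like, other CD4 T-like and Tfh-like classes) it was 2.26 ± 0.402 against 1.69 ± 0.218 CPM (exact permutation p = 0.2). The 3 p19-/- values (2.72, 2.03 and 2.02 CPM) lay above both WT values (1.53 and 1.84 CPM), but 10 splits of 3 against 2 mice cannot give a p below 0.2. The lower limit that 3 UMIs set in this pool was 0.788 to 1.52 CPM per mouse.

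Cytokine genes of IL-17-producing cells were too rare in these data to describe the cells with Il23r. Il17a, Il17f, Il22 and the gamma-delta T cell gene Trdc gave 0 UMIs in the 26 cells. Of the other 9174 cells, 2, 0, 0 and 25 held them, so the absence draws no contrast. Ccr6 was seen in 2 of the 26 (7.69%) and in 4.51% of the other cells. Tmem176a, a membrane protein gene placed on the same list, was seen in 11 of 26 (42.3%) against 5.24% of the other cells. Within Treg-like cells it was seen in 10 of 19 cells with Il23r (52.6%) and in 8.57% of the other 875, with medians of 5047 and 3412 UMIs per cell. By mouse, the counts were 3 of 5, 2 of 4 and 2 of 4 such cells in p19-/- and 0 of 2 and 3 of 4 in WT. Of the 19, Foxp3, which defines Treg cells, was seen in 13, Ikzf2 in 18 and Il2ra, the high-affinity IL-2 receptor chain, in 0, where 13.0% of the other Treg-like cells had Il2ra. These are counts over cells that share libraries and are given without a test.

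**Figure D2:**
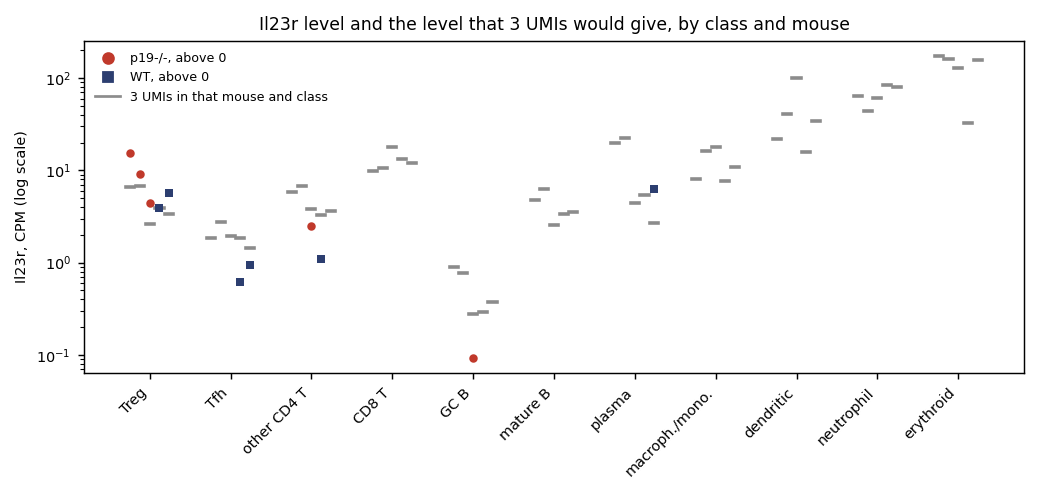
Il23r level (y axis, CPM on a log scale) by cell class (x axis) in each mouse, with red circles for p19-/- and blue squares for WT where at least 1 UMI was seen; grey dashes mark the level that 3 UMIs would give in that mouse and class. In GC B-like cells the dashes lie at 0.278 to 0.892 CPM and the only point lies below them, while Treg-like points lie at or above their dashes.

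Il12rb1, the chain shared by the IL-23 and IL-12 receptors, was a T cell gene here. It was at 21.0 ± 12.4 CPM in Treg-like, 15.6 ± 9.79 in CD8 T-like, 12.8 ± 2.25 in other CD4 T-like and 10.7 ± 2.93 in Tfh-like cells (n = 5 mice), and neighbours in that order overlapped. GC B-like cells stood at 2.38 ± 1.16 CPM. Dendritic cell-like, neutrophil-like and erythroid-like cells gave 0 UMIs. Of the 24 CD4 T cells with Il23r, 2 also held an Il12rb1 UMI.

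Il12rb2, the second chain of the IL-12 receptor, gave 45 UMIs in all. Its 11 UMIs in 3614 CD4 T cells and 2 in 2931 GC B-like cells left it near the counting limit in the main lymphocyte classes. CD8 T-like cells held 10 UMIs (13.1, 14.1 and 0 CPM in p19-/-, 8.90 and 0 in WT), macrophage or monocyte-like cells 11 and dendritic cell-like cells 9. Some mice were at 0 in each of these classes, so no order among them is drawn.

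Il27ra, the ligand-specific chain of the IL-27 receptor, and Il6st, its gp130 partner, were both high in CD4 T cells. Il27ra was at 141 ± 16.8 CPM in Treg-like, 121 ± 39.3 in other CD4 T-like, 109 ± 27.9 in CD8 T-like and 97.5 ± 4.12 in Tfh-like cells, and the 5 Tfh-like values (93.6 to 104) lay above every mature non-GC B-like value (25.5 to 44.7). GC B-like cells had 2.80 to 7.44 CPM. In 571 macrophage or monocyte-like cells Il27ra had 0 UMIs in all 5 mice. By class, Il6st was highest in Tfh-like cells, at 96.1 ± 8.37 CPM, and its range there (85.4 to 106) overlapped that of macrophage or monocyte-like cells (63.9 to 98.4). That class pools 3 clusters, and the one led by Vcam1 and Spic had a higher mean than Tfh-like cells with an overlapping range, at 140 ± 56.1 CPM (73.9 to 199), against 36.7 ± 44.8 in the C1qa and Marco cluster and 61.5 ± 13.7 in the Ace and Ear2 cluster. It was at 1.45 to 2.85 CPM in GC B-like cells and at 15.1 to 49.2 CPM in plasma cell-like cells.

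Ifngr1 and Ifngr2, the 2 chains of the interferon gamma receptor, differed in the lymphocytes in which they were high. Both were highest in macrophage or monocyte-like cells, Ifngr1 at 520 ± 86.2 CPM and Ifngr2 at 158 ± 33.1. Ifngr1 was next in dendritic cell-like (320 ± 125) and CD8 T-like cells (282 ± 95.5), and all 5 CD8 T-like values (214 to 439) lay above those of Treg-like cells (92.8 to 177). Ifngr2 gave 2 UMIs or fewer per mouse in CD8 T-like cells (2.99 ± 3.34 CPM). It was at 51.3 ± 8.15 CPM in mature non-GC B-like cells, above every T cell class in all 5 mice. In GC B-like cells, 865 of 2931 held an Ifngr1 UMI, 429 an Ifngr2 UMI and 174 both. In each of the 3 macrophage or monocyte-like clusters the mean of Ifngr1 (211, 461 and 645 CPM) and of Ifngr2 (92.0, 133 and 190 CPM) lay above that of GC B-like cells.

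Il17ra, the shared chain of the IL-17 receptors, stood higher in B-like than in Tfh-like cells. It was at 57.8 ± 5.37 CPM in GC B-like and 56.0 ± 10.5 CPM in mature non-GC B-like cells, with overlapping ranges, and at 22.7 ± 2.25 CPM in Tfh-like cells. The 5 GC B-like values (49.1 to 61.9) lay above the 5 Tfh-like values (21.0 to 26.2). Neutrophil-like cells were higher (107 ± 25.0), and the neutrophil-like range did not overlap the GC B-like range. Those neutrophil-like values rest on 3 to 6 UMIs per mouse. The pooled macrophage or monocyte-like class stood at 141 ± 39.1 CPM, but 190 of its 211 Il17ra UMIs came from the 163 cells of the Ace and Ear2 cluster (242 ± 56.8 CPM). The Vcam1 and Spic cluster (38.6 ± 26.5) and the C1qa and Marco cluster (2.66 ± 5.95, from 1 UMI in 222 cells) had lower means than GC B-like cells. By the share of cells with a UMI, GC B-like cells came first (46.5%), ahead of neutrophil-like (29.0%) and macrophage or monocyte-like cells (19.6%), but after thinning to 2000 UMIs these shares were 13.1%, 15.4% and 26.7%.

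Ebi3, a soluble subunit of IL-27 and IL-35, had its highest means in neutrophil-like (99.5 ± 27.7 CPM) and macrophage or monocyte-like cells (72.3 ± 20.7). Dendritic cell-like (42.5 ± 32.1) and Treg-like cells (39.9 ± 21.6) followed. The neutrophil-like values rest on 8 to 16 cells and 3 to 6 UMIs per mouse, and that of WT 1 equals the 3-UMI floor. Among the macrophage or monocyte-like clusters, the Ace and Ear2 cluster stood at 90.5 CPM and the others at 46.7 and 46.3. CD8 T-like cells gave 0 UMIs. Socs3 was at 108 ± 41.4 CPM in neutrophil-like and 88.4 ± 42.7 in other CD4 T-like cells, and at 6.16 ± 2.93 in GC B-like cells. Neighbouring classes overlapped for Ebi3 down to GC B-like cells and for Socs3 likewise.

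CD4 T and GC B-like cells of the same mice were compared gene by gene with edgeR's quasi-likelihood test, with mouse as a block. Of the 8 members that could be tested, 6 were higher in CD4 T cells and 2 in GC B-like cells, where 79.8% of all 10338 genes tested differed, so a call by itself says little and the sizes matter more. The higher genes were Il6st (log2 fold change 5.07, SE 0.14), Il27ra (4.42, SE 0.16), Socs3 (3.01, SE 0.16), Il12rb1 (2.48, SE 0.23), Ebi3 (2.34, SE 0.24) and Ifngr1 (0.65, SE 0.08). Il17ra (-1.28, SE 0.08) and Ifngr2 (-0.91, SE 0.13) were lower in CD4 T cells. Adjusted p lay between 5.42e-11 and 3.91e-05 for these 8 genes by edgeR, against a median log2 fold change of 0.05 over all genes.

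Partners of these receptors were counted on pathway lists, beside 4282 of all 10338 genes higher and 3963 lower in CD4 T cells; shares called of 18 of 23 or 8 of 13 are near or below the 79.8% of all genes. Of the 6 other receptor subunits tested, 5 were higher, among them Il6ra (4.88), which pairs with gp130 for IL-6, Ifnar2 (3.07) and Ifnar1 (1.69), the interferon alpha and beta receptor chains, and Il10ra (3.52). Of 23 kinases, STATs and brakes, 16 were higher and 2 lower, led by Stat4 (6.70), the main STAT of IL-12, the phosphatase Ptpn11 (2.90), Jak3 (1.62) and the STAT5-induced inhibitor Cish (7.67). Of 13 IL-17 adaptors and effectors, 8 were higher, including Nfkbiz (2.38), Cebpb (1.50), Ikbke (4.02) and Cebpd (4.13). Of 19 interferon gamma targets, 15 were higher, including Gbp7 (5.89) and Cxcl10 (3.58), and 4 lower, including Irf8 (-5.12) and the MHC class II activator Ciita (-5.72), which B cells use constitutively. Of 13 STAT3 targets, 10 were higher, among them Hif1a (3.21), Maf (8.52), Rora (6.97) and Junb (1.46), and 2 lower. All 4 ligands tested, Il21 (9.31), Ifng (9.98), Osm (7.73) and Clcf1 (1.58), and all 3 markers of Th17 and gamma-delta T cells tested, Tmem176b (3.06), Tmem176a (3.27) and Il1r1 (3.85), were higher.

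Between the 2 largest named CD4 T classes, Tfh-like cells carried more Il6st and Treg-like cells more of the other receptor chains that differed. Of 8 members tested, Il6st was higher in Tfh-like cells (log2 fold change 0.60, SE 0.13, adjusted p = 0.00181 by edgeR) and 5 were lower, where 19.9% of all 8308 genes differed. Ebi3 fell by 3.28 (SE 0.28), Ifngr1 by 2.09 (SE 0.17), Il27ra by 0.53 (SE 0.09), Il12rb1 by 0.98 (SE 0.29) and Ifngr2 by 0.84 (SE 0.26). Ifngr1 was at 24.1, 17.4, 17.6, 33.1 and 33.4 CPM in the Tfh-like cells of p19-/- 1 to 3 and WT 1 and 2, and at 93.2, 177, 92.8, 99.0 and 110 CPM in Treg-like cells. The Treg-like value was higher in all 5 mice. The calls for Il12rb1 and Ifngr2 did not hold in DESeq2 (adjusted p = 0.253 and 0.321), nor without WT 1 (0.310 and 0.0691) or p19-/- 3 (0.0523 and 0.0596), nor, for Ifngr2, without p19-/- 1 (0.117). Il17ra (-0.28, adjusted p = 0.419) and Socs3 (0.21, adjusted p = 0.434) did not pass in edgeR.

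Of all 8308 genes, 778 were higher and 873 lower in Tfh-like cells. Targets of interferon gamma were lower in Tfh-like than in Treg-like cells in 11 of 17 cases and higher in 1, with Gbp7 (-1.48), Gbp3 (-1.48), Gbp5 (-1.15) and Cxcl10 (-1.17) among them and a median of -0.55 against 0.01 over all genes. Ifng itself was higher in Tfh-like cells (2.85, SE 0.40), as was Il21 (2.43, SE 0.16), a gene that also served to name the Tfh-like class. Of 6 other receptor subunits, Il6ra was higher (1.85) and Il21r (-0.74), Ifnar1 (-0.70) and Il10ra (-0.68) lower. Of 21 kinases, STATs and brakes, 5 were higher, including Ptpn11 (1.50), Stat4 (1.05) and Socs1 (0.82), and 2 lower, including Cish (-3.92). Of 12 IL-17 adaptors and effectors, 2 were higher, Traf3ip2 (0.67) and Cebpd (1.27), and 3 lower, including Cebpb (-0.88) and Traf2 (-0.48). Of 11 STAT3 targets, 3 were higher and 6 lower, among the latter Junb (-0.80), Pim1 (-1.13), Prdm1 (-3.48) and Batf (-0.74). Neither of the 2 Th17 and gamma-delta T markers tested passed.

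In the B lineage, GC B-like cells carried less Il27ra and less of both interferon gamma receptor chains than mature non-GC B-like cells, and a similar level of Il17ra. Il6st, the other IL-27 receptor chain, was too sparse to be tested in this comparison. Of 6 members tested, 5 were lower in GC B-like cells and none higher, where 54.4% of all 8928 genes differed. Il27ra fell by 3.10 on the log2 scale (SE 0.28), Ebi3 by 2.33 (SE 0.30), Ifngr2 by 1.91 (SE 0.13), Socs3 by 1.52 (SE 0.37) and Ifngr1 by 1.09 (SE 0.15). Adjusted p lay between 2.52e-07 and 0.00457 by edgeR. Ifngr2 was at 19.9, 13.2, 12.8, 16.0 and 14.9 CPM in GC B-like cells of p19-/- 1 to 3 and WT 1 and 2, and at 62.2, 48.4, 55.0, 50.9 and 40.2 CPM in mature non-GC B-like cells, with no overlap. For Il17ra the difference was -0.09 (SE 0.12, adjusted p = 0.588).

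The pathway lists stand beside 2456 of all 8928 genes higher and 2404 lower in GC B-like cells, so that 10 of 20 or 5 of 11 genes called is near or below the 54.4% of all genes. Of 15 interferon gamma targets, 12 were lower in GC B-like cells and 1 higher, with Cd274 (-3.60), Gbp2 (-2.07), Gbp7 (-4.32) and Ciita (-0.84) among the lower and a median of -0.92 against -0.02 over all genes. Of 6 other receptor subunits, 5 were lower, including Il10ra (-4.61), Il6ra (-3.07), Ifnar1 (-1.57) and Ifnar2 (-1.81). Of 20 kinases, STATs and brakes, 10 were lower and none higher, including Ptpn6 (-0.89), Stat4 (-3.34) and Jak1 (-0.50). Of 11 IL-17 adaptors and effectors, 5 were lower, among them Ikbke (-2.13), Zc3h12a (-1.09), Traf3 (-0.68) and Traf5 (-0.48). Of 9 STAT3 targets, 4 were lower, including Junb (-1.41) and Pim2 (-0.93), and 2 higher, Pim1 (1.12) and Bcl6 (2.95), a gene that also named the GC B-like class. The ligand Clcf1 (-2.77) was lower, as were Tmem176b (-1.14) and Ccr6 (-7.03), a marker of the mature class.

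Within GC B-like cells, 4 members rose toward the light zone, where B cells are selected by Tfh cells. Cells were ranked in each mouse by light zone minus dark zone genes, none of them a member, and 1 in 3 cells at each end of the ranking (975 cells per end) were compared. Of 6 members tested, 4 were higher and 1 lower at the light end, where 33.5% of all 8717 genes differed. Ebi3 was 0, 0.732, 1.12, 0.703 and 0.320 CPM at the dark end in p19-/- 1 to 3 and WT 1 and 2, and 11.3, 4.94, 7.73, 6.34 and 5.81 CPM at the light end. Socs3 went from 0.871, 0, 2.69, 0 and 2.88 CPM to 21.7, 13.8, 14.1, 7.14 and 14.0 CPM. For both genes every light value lay above every dark value.

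The fitted log2 fold changes were 3.21 for Ebi3 (SE 0.38), 3.03 for Socs3 (SE 0.41), 1.92 for Il27ra (SE 0.31) and 1.17 for Ifngr2 (SE 0.16), with adjusted p between 5.73e-05 and 0.000539 by edgeR. Ebi3 and Socs3 rest on 5 or fewer and 12 or fewer UMIs per mouse at the dark end. Il17ra fell by 0.55 (SE 0.09, adjusted p = 0.000572), from 69.0 ± 3.17 to 47.4 ± 5.25 CPM, and was lower at the light end in all 5 mice. Ifngr1 did not pass (0.26, SE 0.13, adjusted p = 0.154), and was higher at the light end in 4 of 5 mice.

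Of all 8717 genes, 1472 were higher and 1447 lower at the light end. Interferon gamma targets were higher there in 11 of 12 cases tested and lower in none, led by Irf1 (1.44), Ciita (0.89), Gbp2 (2.13) and Gbp4 (1.21), with a median of 0.78 against 0.01 over all genes. Of 9 STAT3 targets, 6 were higher, including Batf (2.50), Junb (1.76), Bcl3 (0.98) and Pim1 (0.40). Of 19 kinases, STATs and brakes, 7 were higher, including Ptpn6 (0.61), Jak1 (0.56) and Stat3 (0.41), and 1 lower. Il21r (1.60) and Ifnar1 (0.62) were higher among 3 other receptor subunits, and Nfkbiz (0.98), Zc3h12a (0.91) and Traf3 (0.46) among 10 IL-17 adaptors and effectors. Clcf1 (1.33) and Tmem176b (1.75), each the sole gene of its list that could be tested, were higher.

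**Figure D3:**
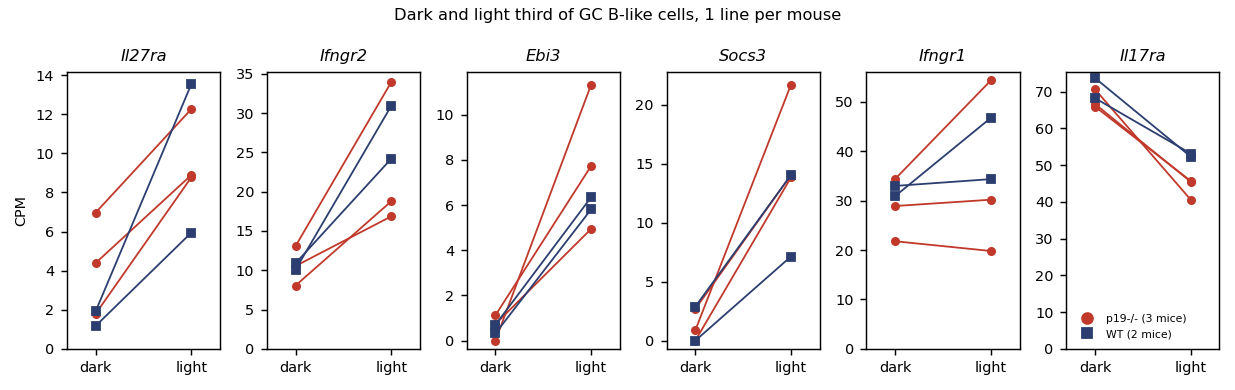
Level of 6 genes (y axis, CPM, scaled separately) at the dark and light ends of the ranking of GC B-like cells (x axis), with 1 line per mouse (red p19-/-, blue WT). Il27ra, Ifngr2, Ebi3 and Socs3 lines rise in all 5 mice, Il17ra lines fall in all 5, and Ifngr1 lines rise in 4 of 5.

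The series title ties IL-23 to switching to IgG2b, so GC B-like cells with an IgG2b and with an IgM heavy chain in the BCR library were compared. The matched BCR libraries gave a heavy chain for 2251 of the 2931 GC B-like cells. IgG2b cells numbered 29, 28, 76, 166 and 75 and IgM cells 16, 27, 250, 119 and 83 in p19-/- 1 to 3 and WT 1 and 2. None of the 3 members tested, Il17ra (-0.10), Ifngr1 (0.20) and Ifngr2 (-0.15), passed in edgeR (adjusted p = 0.959 or higher), where 0.226% of all 7525 genes did. None passed in DESeq2 either. The members' unadjusted p was 0.219 or higher. Il17ra was at 35.2, 39.6, 55.6, 60.1 and 59.0 CPM in IgG2b cells and at 26.8, 79.4, 51.1, 63.6 and 61.6 CPM in IgM cells, with overlapping ranges. Il23r had 0 UMIs in IgM and in IgG2b cells, and its 1 UMI in GC B-like cells was in an IgG1 cell of p19-/- 3.

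Between genotypes, no receptor chain that could be tested passed in any class, and the genes that did were Socs3 and Ebi3. Il23r and Il12rb2 were too sparse to be tested in these fits. In the pooled CD4 T cells, Socs3 was at 77.7, 65.5 and 76.6 CPM in p19-/- 1 to 3 and at 26.3 and 38.6 CPM in WT 1 and 2. Every p19-/- mouse lay above both WT mice (73.3 ± 6.74 against 32.5 ± 8.70 CPM). The log2 fold change was 1.18 (SE 0.17, adjusted p = 0.0127 by edgeR), and Socs3 was the member called among 8 tested, where 0.502% of all 10358 genes were called. The call was lost with sex as a covariate (adjusted p = 0.0609), without p19-/- 3 (0.0612) and without WT 1 (0.112).

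The CD4 T classes were each examined for the same gene. Tfh-like cells had 71.2, 42.2 and 91.8 CPM of Socs3 in p19-/- and 18.1 and 31.0 CPM in WT, with no overlap. There the log2 fold change was 1.49 (SE 0.29, adjusted p = 0.0291 by edgeR), 1 call among 7 members tested, where 0.624% of all 9137 genes were called. This call was lost in DESeq2 (adjusted p = 0.392), with doublets kept (0.0566), with sex as a covariate (0.0531) and without p19-/- 1 (0.0770), p19-/- 3 (0.0536) or WT 1 (0.255). Treg-like cells had 59.9, 40.9 and 54.3 against 23.8 and 38.7 CPM, which did not pass (0.75, adjusted p = 0.360). Other CD4 T-like cells, not tested alone, had 114, 148 and 79.3 against 42.9 and 57.8 CPM. In all 3 classes the p19-/- mice lay above the WT mice.

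Socs3 did not pass in any class tested outside CD4 T cells. GC B-like cells had 10.7, 4.93 and 6.02 against 2.70 and 6.45 CPM (log2 fold change 0.62, adjusted p = 0.724). Macrophage or monocyte-like cells had 66.6, 71.1 and 65.8 against 50.8 and 43.0 CPM, which do not overlap but did not pass (0.57, adjusted p = 0.819). Mature non-GC B-like cells overlapped, at 4.79, 25.3 and 18.9 against 7.91 and 18.9 CPM (0.25, adjusted p = 0.997). CD8 T-like cells had 32.8, 99.0 and 65.9 against 53.4 and 44.6 CPM (0.43, adjusted p = 0.999). Whether the genotype difference was larger in CD4 T than in GC B-like cells was tested as an interaction, which did not pass (difference 0.59, adjusted p = 0.935 by edgeR). Of 8 members tested for that interaction none passed, where 0% of all 11145 genes did by edgeR (558 at an unadjusted p under 0.05, and 4 by DESeq2, none of them a member).

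Heat shock genes, a list added after seeing the data, ranked the mice in the pooled CD4 T cells as Socs3 did. Their summed level over 12 genes there was 10373, 7092 and 9833 CPM in p19-/- and 4406 and 5131 CPM in WT. Treg-like cells kept this order, and Tfh-like and other CD4 T-like cells did not. In Tfh-like cells, p19-/- 3 had the most Socs3 (91.8 CPM) and p19-/- 1 the largest sum (9960 CPM). In other CD4 T-like cells, p19-/- 2 had the most Socs3 (148 CPM) but the lowest p19-/- sum (7216 CPM). In CD8 T-like cells the sums were 7206 to 10303 against 3810 to 4967 CPM, while Socs3 overlapped between genotypes. Of 10 heat shock genes tested, 3 were higher in CD4 T cells, 7 in Tfh-like and 8 in Treg-like cells. In GC B-like cells 0 of 11 were, and the sums were 9002 to 11961 against 7409 to 8284 CPM. Mature non-GC B-like sums were 5104 to 7282 against 4333 to 4511 CPM, also without overlap. Immediate early genes, which respond to handling as well as to stimulation, were at 4039 to 4597 against 3757 to 4176 CPM in CD4 T cells, and none of 18 passed. Erythroid markers were lower in p19-/- CD4 T cells (4.32 to 19.8 against 44.4 to 56.5 CPM, with both of the 2 tested of 8 markers called), and neutrophil markers were at 0.388 to 1.02 against 1.53 to 4.47 CPM, with 3 of 7 at 0 in every mouse. Dendritic cell markers were at 228 to 278 against 349 to 414 CPM, with none of 2 tested called and 3 of 9 at 0. All 3 lists were higher in WT. CD8 T markers were at 152 to 466 against 92.4 to 153 CPM, with 1 of 5 tested called higher in p19-/-. Macrophage or monocyte markers in CD4 T cells were 74.0 to 80.4 against 60.4 to 82.0 CPM. The part of heat shock genes and these markers in the Socs3 result was not tested.

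**Figure D4:**
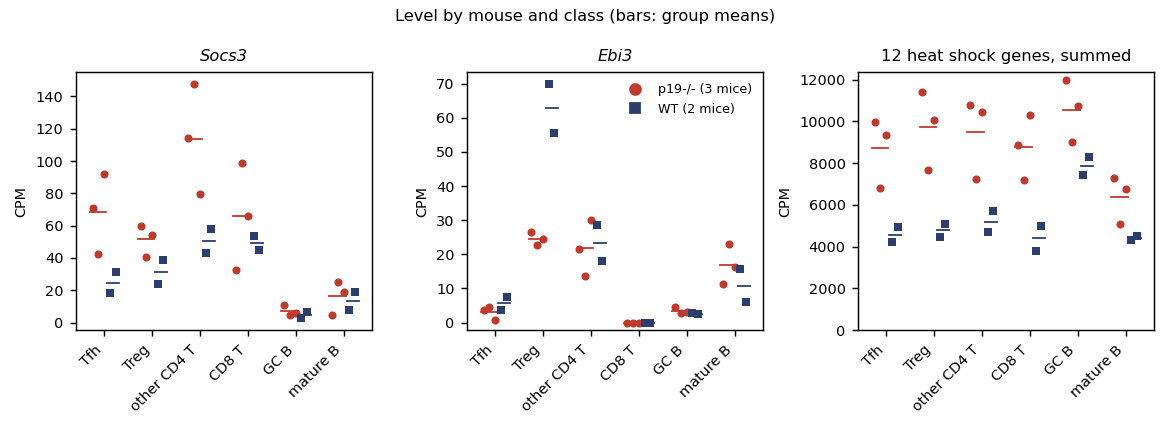
Socs3 (left), Ebi3 (middle) and the sum of 12 heat shock genes (right) in 6 lymphocyte classes (x axis), as CPM (y axis, linear), with 1 point per mouse (red circles p19-/-, blue squares WT) and bars for group means. In the Treg-like, Tfh-like and remaining CD4 T-like cells the p19-/- points lie above the WT points for Socs3 and for heat shock genes. For heat shock genes they also do so in GC B-like, mature non-GC B-like and CD8 T-like cells. In Treg-like cells the p19-/- Ebi3 points (22.7 to 26.6 CPM) lie below the WT points (55.7 and 70.0 CPM).

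Ebi3 went the other way, and in Treg-like cells. It was at 26.6, 22.7 and 24.5 CPM in p19-/- 1 to 3 and at 70.0 and 55.7 CPM in WT 1 and 2. The groups did not overlap, and the lower WT mouse was more than 2 times the highest p19-/- mouse. The log2 fold change was -1.31 (SE 0.25, adjusted p = 0.00918 by edgeR), 1 call among 8 members tested, where 0.782% of all 7805 genes were called. The call was lost in DESeq2 (adjusted p = 0.207), with sex as a covariate (0.151), with the replicate number as a block (0.184), without p19-/- 3 (0.130) and without WT 1 (0.349).

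Ebi3 did not pass in the other classes tested. Over all CD4 T cells it was at 11.3, 10.7 and 15.3 against 26.0 and 21.0 CPM, without overlap (-0.88, adjusted p = 0.169 by edgeR). There it passed without a filter on low counts (adjusted p = 0.00415) and with the replicate number as a block (0.00252). Other CD4 T-like cells overlapped, at 21.6, 13.7 and 30.2 against 28.6 and 18.1 CPM, and macrophage or monocyte-like cells had 101, 60.1 and 83.8 against 48.2 and 68.1 CPM (0.62, adjusted p = 0.795). The interaction between CD4 T and GC B-like cells did not pass for Ebi3 (-1.23, adjusted p = 0.783). In Treg-like cells, markers of dendritic cells, which carry Ebi3, were at 280 to 331 against 302 to 306 CPM, with 6 of 9 at 0 in every mouse, and macrophage or monocyte markers at 46.6 to 63.6 against 50.0 to 50.2 CPM. Neutrophil markers were at 0 to 0.876 against 0 to 4.55 CPM, with 4 of 7 at 0. CD8 T markers were at 264 to 1107 against 197 to 375 CPM, with 2 of 4 tested called higher in p19-/- and 1 of 6 at 0, and Treg markers at 2722 to 3390 against 3244 to 3423 CPM, with none of 7 called. Plasma cell markers were at 170 to 1432 against 171 to 182 CPM, with none of 4 tested called. The part of these markers in the Ebi3 result was not tested.

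The receptor chains themselves gave the following in the same tests. In CD4 T cells the log2 fold changes of Il12rb1, Il17ra, Il27ra, Il6st, Ifngr1 and Ifngr2 lay between -0.36 and -0.03, with adjusted p of 0.726 or higher by edgeR. Ifngr1 in Tfh-like cells had the lowest p of any receptor chain, at 24.1, 17.4 and 17.6 CPM in p19-/- and 33.1 and 33.4 CPM in WT. These groups did not overlap, and the difference (-0.72, SE 0.21) had an unadjusted p of 0.00457 and did not pass over all genes (adjusted p = 0.242). In Treg-like cells Il12rb1 was at 11.1, 20.5 and 14.0 against 42.3 and 17.1 CPM (-0.94, adjusted p = 0.558), a value that was -0.15 without WT 1 and -1.49 without WT 2. Il17ra there was higher in p19-/- without overlap, at 31.1, 50.0 and 25.4 against 21.1 and 22.7 CPM (0.61, adjusted p = 0.710 by edgeR). Il27ra was lower without overlap, at 122, 143 and 130 against 144 and 166 CPM (-0.215, adjusted p = 0.854 by edgeR). Full separation of 3 from 2 mice has an exact permutation p of 0.2, so absence of overlap alone says little.

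GC B-like cells called none of 8 members, where 0.0191% of all 10495 genes were called. Il17ra was at 49.1, 60.1 and 56.2 CPM in p19-/- and 61.9 and 61.6 CPM in WT, which do not overlap, but the difference was small (-0.18, SE 0.11, adjusted p = 0.677 by edgeR). Il12rb1 (0.67), Il6st (0.55), Il27ra (0.28), Ifngr1 (-0.27) and Ifngr2 (-0.08) had adjusted p of 0.703 or higher. Neither DESeq2 nor a fit without a filter on low counts called a member there.

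Mature non-GC B-like cells called none of 6 members, where 0.0562% of all 7117 genes were called, and their log2 fold changes ran from -0.15 (Il17ra) to 0.55 (Ebi3). CD8 T-like cells called none of 4, where 0% of all 3431 genes were called by edgeR (121 at an unadjusted p under 0.05, and 4 by DESeq2), with Ifngr1 at 308, 439 and 222 against 214 and 227 CPM (0.58, adjusted p = 0.999). Macrophage or monocyte-like cells called none of 6, where 0% of all 4833 genes were called by edgeR (307 at an unadjusted p under 0.05, and 1 by DESeq2). Neither test called a member in these 3 classes.

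**Figure D5:**
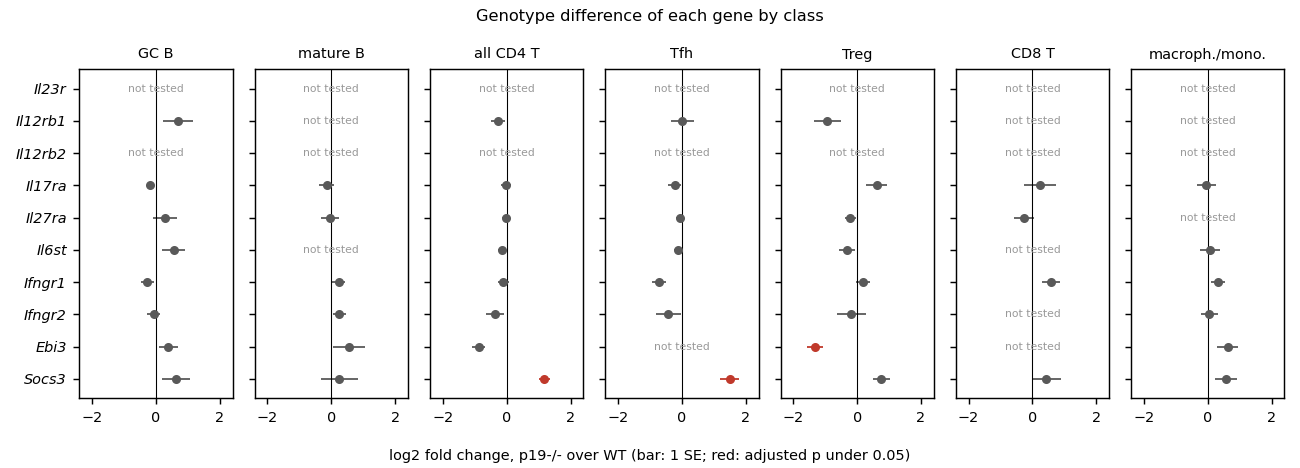
Log2 fold change of p19-/- over WT (x axis) for each of the 10 genes (y axis) in 7 tests, with bars of 1 SE; red points passed an adjusted p of 0.05 by edgeR. The red points are Socs3 in all CD4 T (1.18) and Tfh-like cells (1.49) and Ebi3 in Treg-like cells (-1.31). Neither Il23r nor Il12rb2 could be tested in any class.

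The pathway lists around the receptors gave 1 call between genotypes. Ccr6, a chemokine receptor of Th17 and other cells, fell in p19-/- Treg-like cells from 47.5 and 37.5 CPM in WT to 8.88, 9.09 and 1.75 CPM (log2 fold change -3.00, SE 0.46, adjusted p = 0.00147 by edgeR), without overlap. The values rest on 4, 4 and 2 UMIs in p19-/- and 36 and 33 in WT. This call was not examined under the alternatives used for the members. Ccr6 was 1 of 3 tested on its list, the markers of Th17 and gamma-delta T cells. Ccr6 is also a marker of mature non-GC B cells. Their list, which includes Ccr6, stood at 156 to 224 against 202 to 209 CPM in Treg-like cells. Of 6 tested on it, the 1 called lower was Ccr6 itself. The part of mature non-GC B cells in the result was not tested. Of 17 interferon gamma targets in GC B-like cells all had a positive fold change and none passed, with a median of 0.31 against 0.01 over all genes. The lowest p on that list was that of Irgm1 (1.26, SE 0.29, adjusted p = 0.366). It was named after its value was seen. In CD4 T cells 17 of 18 interferon gamma targets and 10 of 13 STAT3 targets were positive with none passing, with medians of 0.20 and 0.17. The lean was not particular to these lists. In GC B-like cells 18 of 22 kinases, STATs and brakes, 8 of 9 STAT3 targets and 5 of 6 other receptor subunits were positive. Ligands there had 0 of 2. In CD4 T cells 18 of 23 kinases, STATs and brakes and 6 of 6 other receptor subunits were positive. Th17 and gamma-delta T markers there had 1 of 5. Ligands, other receptor subunits, kinases, STATs and brakes, and IL-17 adaptors had none called in any of the 7 classes.

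Some genes resembled the members in their pattern over 40 class-by-mouse sums (9 classes, each sum of at least 20 cells), by Pearson's r of log2(CPM + 1) among 8129 genes. The 3 nearest to Il27ra were H2-Q4 (r = 0.935), Tbc1d10c (0.933) and Gimap3 (0.924), and to Il6st Vsir (0.925), Itm2b (0.921) and Timp2 (0.887). For Ifngr1 they were Golm1 (0.902), Ccr2 (0.893) and Fam46a (0.890), and for Ifngr2 Vav2 (0.915), Rassf4 (0.902) and Skap2 (0.900). Il12rb1 had Baiap3 (0.872), Ift80 (0.871) and Apol7e (0.842), and Il17ra had Rhoq (0.841), Slc1a3 (0.816) and Nkiras2 (0.812). Socs3 had Il15ra (0.854), Fyb (0.854) and Ms4a6b (0.852), and Ebi3 had Plbd2 (0.838), Grn (0.838) and Ahr (0.836). The sums of 1 mouse share a library, so these are descriptions without a p.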

How the data were processed

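The files were those of 5 single-cell RNA and 5 BCR libraries, 1 of each per mouse. Per the labels, cells were captured with the 10x 5' V(D)J kit, while Cell Ranger 3.0.2, STAR and the build mm10 are named in the submitters' processing notes. The authors deposited raw UMI counts per gene and barcode, already filtered to cells and not normalized, and UMI counts per assembled BCR contig with its constant gene. The other deposited columns are text (barcodes, gene names, contig calls).

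Barcodes with over 10% mitochondrial UMIs (1907, or 16.8% of 11355) or under 200 genes were removed. Scrublet's automatic threshold marked 28 of 9356 cells, so the expected number of highest scores per mouse (0.8% per 1000 cells) was removed instead: 156 cells (1.67%). Counts scaled to 10000 per cell, 2000 variable genes, 20 components, 20 neighbours and Leiden resolution 1 (scanpy 1.11.5, leidenalg 0.10.2) gave 21 clusters. The 10 members, the pathway lists and immunoglobulin, T cell receptor and sex-linked genes were left out. Clusters were named by marker lists. The 3 macrophage or monocyte-like clusters have few UMIs per cell (median 1607). The clusters named CD4 T were also pooled.

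UMI counts were summed per mouse and class and tested in edgeR 4.0.16 (R 4.3.3): low counts were filtered by filterByExpr, libraries scaled by TMM, and quasi-likelihood p-values adjusted by Benjamini and Hochberg's method across every gene tested, at 0.05, with genotype alone between genotypes and mouse as a block between classes, zones and isotypes. The scripts were tested on simulated data. Fold changes are log2. A floor of 3 UMIs stands for values of 0. DESeq2 1.42.0 and the other alternatives are given in the closing section. Il23r was taken as a value per mouse with an exact permutation test.

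The genes followed, the lists and the comparisons were chosen with earlier results of these data known, and the heat shock and immediate early lists were added after seeing the data. Named pathway genes are the up to 4 of lowest p that passed on each list, and others are marked where named. Same-numbered mice of the 2 genotypes were not paired: their deviations correlated at -0.10 and 0.02 in GC B-like and 0.03 and 0.15 in CD4 T cells. Coordinates are RefSeq's for GRCm38.p6 (mm10). Some genes of the pathway lists are not reported here.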

Additional observations from a re-analysis of the deposited data

How the results depend on the processing

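Of 1019 values of members under alternatives, 971 kept their direction and their side of the threshold or moved by less than an SE, 21 lost a call, 2 gained one and 25 moved further without a call. Where a member passed in a comparison under at least 1 setting, none of its values there changed sign, but 38 of the 713 values of members that passed under none did. The number of members called between genotypes was 1 in CD4 T cells and became 2 without a filter on low counts, 0 with sex as a covariate, 2 with the replicate block, and 0 to 1 when single mice were left out. In Tfh-like cells it went from 1 to 0 in DESeq2, with doublets kept and with sex as a covariate, and was 0 to 1 with single mice left out. In Treg-like cells it went from 1 to 0 in DESeq2, with sex and with the replicate block, and was 0 to 1 with single mice left out. The gained call was Ebi3 in CD4 T cells (adjusted p = 0.00415 without a filter and 0.00252 with the replicate block, by edgeR). The replicate block moved the calls over all genes from 52 to 485 in CD4 T, from 57 to 108 in Tfh-like, from 61 to 20 in Treg-like and from 2 to 46 in GC B-like cells. The other counts over all genes between genotypes that moved by over 1.5 times are given by setting. DESeq2 called 30 in Treg-like and 50 in GC B-like cells, 8 (from 4) in mature non-GC B-like cells, 4 (from 0) in CD8 T-like cells, 1 (from 0) in macrophage or monocyte-like cells and 4 (from 0) for the interaction. Without a filter, 384 genes were called in CD4 T, 231 in Tfh-like, 157 in Treg-like, 233 in GC B-like, 136 in mature non-GC B-like, 27 in CD8 T-like and 80 in macrophage or monocyte-like cells, and 86 for the interaction. Sex as a covariate gave 21 in CD4 T, 15 in Treg-like, 8 in GC B-like, 9 in mature non-GC B-like, 2 in CD8 T-like and 1 in macrophage or monocyte-like cells, and the replicate block gave 49, 2 and 12 in the last 3 classes. With single mice left out the counts ran from 10 (without WT 1) to 58 in CD4 T, 38 (without WT 2) to 72 in Tfh-like, 14 (without WT 1) to 89 in Treg-like and 0 (without WT 1 or WT 2) to 11 in GC B-like cells, 3 to 12 in mature non-GC B-like, 0 to 8 in CD8 T-like and 0 to 19 in macrophage or monocyte-like cells, and 0 to 10 for the interaction. DESeq2 called 901 genes between Tfh-like and Treg-like cells (1651 by edgeR) and 1858 between zones (2919 by edgeR), and between isotypes 172 genes were called without a filter and 6 to 15 with single mice left out, from 17. The difference of Il23r over all cells (-0.04 CPM) ranged from -0.358 to 0.283 CPM with single mice left out, and was 0.199 CPM without the cell that holds 7 UMIs, an alternative chosen after seeing the data. The class with the highest CPM also had the highest share of cells for 5 of 10 members, and for 8 after thinning to 2000 UMIs. The fit of macrophage or monocyte-like cells at Leiden resolution 0.5 was not run, since no such class could be fitted there. The causes were not tested. Il23r, Il12rb1 and Il12rb2 rest on few UMIs per mouse, and the size of difference that 3 against 2 mice could show for them was not computed.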
